A study of Mus musculus with 8 samples.

Results

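Total RNA was compared between mouse embryonic fibroblasts whose eIF4E cannot be phosphorylated and fibroblasts with normal eIF4E. The members were the 2 arrays of total cytoplasmic RNA from the eIF4E knock-in line (EIF4E-KI, here KI) and the 2 arrays of total cytoplasmic RNA from the wild-type line (WT), which are 4 of the 8 Illumina mouse bead arrays in the series. The other 4 arrays hold heavy polysomal RNA, that is mRNA carried by more than 3 ribosomes, from the same cultures. Both lines came from embryos taken at day 14.5 of pregnancy, were immortalised by passage and grew in DMEM with 10% fetal bovine serum, and no agent was added per the labels. The labels describe 1 pair of lines and 2 independent RNA isolations. An effect of the mutation and a difference between the 2 lines therefore cannot be told apart, and every p-value below measures the spread between isolations. Of 25697 probes on each array, 23978 carried 1 gene symbol. The test covered the 8832 genes with a named probe above the median of all probe means (7.73 on the log2 scale), each read from its brightest probe. The number of arrays limits the precision.

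eIF4E is the protein that holds the cap at the 5′ end of an mRNA and delivers the mRNA to the small ribosomal subunit. MNK kinases add the phosphate to eIF4E downstream of MAP kinase signalling. Phosphorylation acts on the protein. A probe for Eif4e mRNA reads the amount of that mRNA and not its sequence, so it shows neither the mutation nor the missing phosphate. Total RNA reads what the cell transcribes and keeps, whereas polysomal RNA reads what is loaded on ribosomes. Several gene programs that fibroblasts carry recur below. Hox genes record the position along the body axis from which a fibroblast came. Many interferon-response genes carry the interferon-stimulated response element (ISRE), which IRF9 helps to bind. ATF4 is the transcription factor of amino acid and endoplasmic reticulum stress and binds a C/EBP-ATF composite element. Contractile and matrix genes mark the myofibroblast state.

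The 4 promoter stretches are shown because their genes carry 2 of the patterns described below, the interferon response and the ATF4 response. These 4 genes are among those higher in KI without overlap on the total arrays, and Oas1g is outside the interferon list. The sequences are from RefSeq on GRCm38.p6 and are written 5′ to 3′ on the strand of the gene, with the motif matches in capitals. Isg15 lies on the minus strand (chr4:156200845-156200936), Oas1g on the minus strand (chr5:120887614-120887691), Aars on the plus strand (chr8:111033690-111033777) and Fgf21 on the minus strand (chr7:45615582-45615669).
Isg15: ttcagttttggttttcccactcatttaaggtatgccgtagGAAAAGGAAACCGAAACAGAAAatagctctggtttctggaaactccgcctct
Oas1g: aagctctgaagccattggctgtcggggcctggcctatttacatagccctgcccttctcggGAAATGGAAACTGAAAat
Aars: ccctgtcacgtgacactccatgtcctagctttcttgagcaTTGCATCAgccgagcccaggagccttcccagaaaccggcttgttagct
Fgf21: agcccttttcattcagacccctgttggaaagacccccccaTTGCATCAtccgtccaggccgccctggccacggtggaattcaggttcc

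The ISRE core was searched as GAAA followed after 2 free bases by a further GAAA, and the C/EBP-ATF element as TGATGNAA, on both strands of windows from 250 bases before to 50 bases after the gene start, with overlapping matches allowed. The capitals in the Isg15 stretch join 3 overlapping ISRE matches and those in Oas1g join 2, while the stretches shown for Aars and Fgf21 each hold 1 C/EBP-ATF match, read on the opposite strand. The whole Aars window holds 2 such matches. Of the 27 tested interferon-list genes with a window, 12 held the ISRE core (44.4%), against 263 of 7216 tested genes with a window (3.65%). Of 32 ATF4-list genes with a window, 14 held the C/EBP-ATF element (43.8%), against 220 of the 7216 (3.05%). Both lists are of known targets of these factors. Of the members holding the C/EBP-ATF element, Aars, Chac1, Fgf21, Herpud1 and Vldlr were higher without overlap on the total arrays. Asns, Atf3, Gars, Iars, Nupr1, Slc7a11, Tars, Trib3 and Yars overlapped between the lines. Of the members holding the ISRE core, Isg15 and Ifitm3 alone were at least 1 higher in every pair. Eif2ak2 and Gbp2 overlapped and Gbp3 was lower. Among the 22 genes with a window that were at least 1 higher in KI in every array pair, 6 held the ISRE core, namely Apol9b, Egr4, Ifitm3, Isg15, Oas1g and Shisa5. Of the same 22 genes, 2 held the C/EBP-ATF element, and both, Ifitm3 and Lgals3bp, are members of the interferon list and not of the ATF4 list. A match of letters is no evidence of binding.

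The 2 WT total arrays stood apart from each other, so each is shown on its own throughout. Between them, 153 genes (1.73%) were at least 1 higher on the log2 scale in replicate 2 and 198 (2.24%) at least 1 lower, where 1 on this scale is a 2-fold difference. Between the KI total arrays the counts were 128 (1.45%) and 85 (0.962%). Of the 351 genes at least 1 apart between the WT total arrays, 293 lay within 0.5 of each other on the 2 WT polysomal arrays from the same cultures, and 9 were 1 apart in the same direction. For the KI line 91 of 213 such genes lay within 0.5 and 47 were 1 apart the same way. Total and polysomal arrays are matched here by the replicate number in their titles. Across tested genes the replicate difference in WT total RNA correlated with that in WT polysomal RNA at 0.05. For KI this correlation was 0.58. Over all 25697 probes, WT total 2 correlated more closely with KI total 2 (Pearson r = 0.982) than with WT total 1 (0.970), and the KI total arrays correlated with each other at 0.975, while the WT polysomal arrays correlated at 0.991. For Hox B genes and the Y-linked gene Eif2s3y, described below, WT total 2 lay with WT total 1. The Y-linked gene Uty overlapped between the lines. Hox B genes are described because both WT total arrays lay apart from KI, so their likeness there was fixed by that choice. Eif2s3y was at the bottom of the signal range on both WT total arrays. Each KI minus WT value in total RNA rests in part on WT total 2. The cause of the gap between the WT total arrays was not tested.

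The genes furthest apart between the WT total arrays are given first. Ccl7, a chemokine that draws monocytes, read 12.45 on WT total 1 and 8.47 on WT total 2, against 8.76 and 8.60 in KI total RNA. On the WT polysomal arrays Ccl7 read 12.53 and 12.98, so that WT total 2 alone among the 4 WT arrays lay near KI. Dcn, the collagen-binding proteoglycan decorin, followed the same order, with 11.91 and 8.09 in WT total RNA, 8.68 and 8.56 in KI total RNA, and 13.89 and 14.05 on the WT polysomal arrays. In the opposite direction, Crip2, a LIM-domain protein of smooth muscle and heart, read 7.93 on WT total 1 and 12.14 on WT total 2, beside 12.35 and 12.91 in KI and 7.78 and 7.72 on the WT polysomal arrays. Sphk1, which makes sphingosine 1-phosphate, read 9.39 and 12.41 in WT total RNA and 11.74 and 11.67 in KI. For these 4 genes WT total 2 lay closer to KI than to the other WT total array. Ccl5, Ccl2, Ccl9, Prl2c3, Prl2c4, Egr1, Igfbp2, Mgp and Cxcl1 were also among the 8 furthest apart in each direction.

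A smaller set was high on WT total 2 and on no other array. Igf2, the fetal insulin-like growth factor, read 10.07 there and between 7.66 and 7.77 on the other 7 arrays. Col2a1, the collagen of cartilage, read 10.42 there, and its next highest value was 7.99 on KI total 2. Mmp23, a membrane-bound metalloproteinase, read 10.41 there and at most 7.76 elsewhere. These 3 genes were therefore near the bottom of the signal range in both lines on every array but this.

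**Figure D1:**
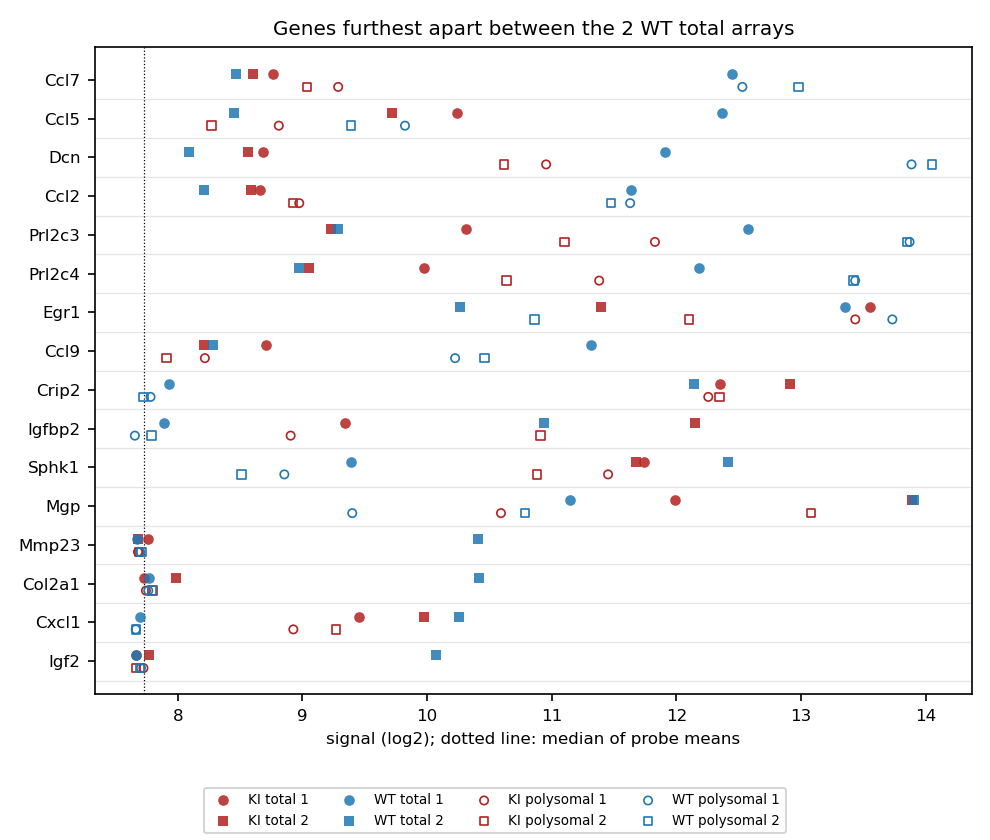
Log2 signal (x axis) on all 8 arrays for the 16 genes furthest apart between the WT total arrays, 8 in each direction (y axis). Filled symbols are total RNA and open symbols polysomal RNA, red is KI and blue WT, circles are replicate 1 and squares replicate 2. The filled blue square of Ccl7 (8.47) lies with the red symbols and away from the other blue symbols, and Igf2, Col2a1 and Mmp23 are high at that square alone.

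Against WT total 1 alone, the mean of the KI arrays was at least 1 higher for 137 genes (1.55%) and at least 1 lower for 167 (1.89%). Against WT total 2 alone the counts were 103 (1.17%) and 71 (0.804%). The same KI arrays enter both differences. A total of 50 genes (0.566%) were at least 1 higher and 17 (0.192%) at least 1 lower against each WT array. Another 6 genes (0.0679%) were at least 1 higher against one WT array and at least 1 lower against the other, and Ccl5 was the widest of these, at −2.39 against WT total 1 and 1.53 against WT total 2. The median over all tested genes was −0.04 against the WT mean, −0.03 against WT total 1 and −0.02 against WT total 2.

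**Figure D2:**
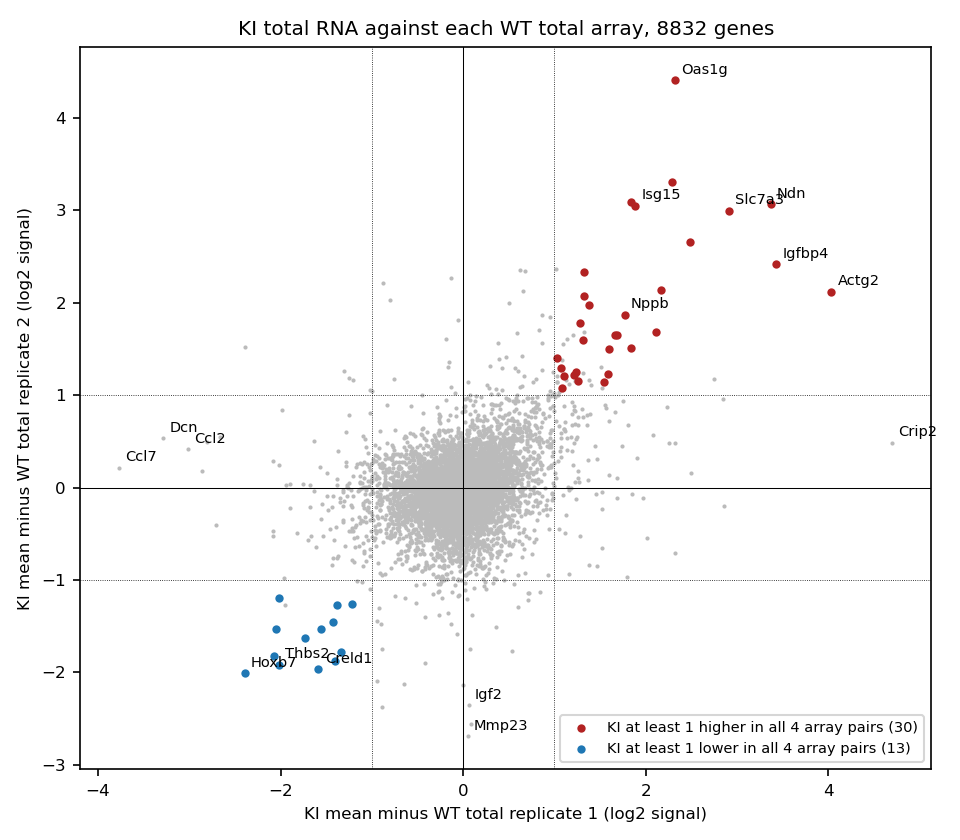
KI mean minus WT total replicate 1 (x axis) against KI mean minus WT total replicate 2 (y axis), in log2 signal, for the 8832 tested genes. Red points are the 30 genes at least 1 higher in KI in all 4 array pairs and blue points the 13 at least 1 lower; Crip2 (4.70 and 0.49) and Ccl7 (−3.77 and 0.22) differ from WT total 1 alone.

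In limma 5 genes were higher in KI (0.0566% of those tested) and 5 were lower (0.0566%) at a Benjamini-Hochberg adjusted p below 0.05. At an unadjusted p under 0.05 there were 801 (9.07%), of which 409 were higher (4.63%) and 392 lower (4.44%). Both KI arrays lay above both WT arrays for 1126 genes (12.7%) and below both for 1694 (19.2%), and 3515 genes (39.8%) had a positive difference. The fit pools the spread of each gene over the total and the polysomal arrays, and with only the 4 total arrays 0 genes passed. With the replicate number as a block Foxf1, Gpx7, Hoxb6, Hoxc10 and Irf7 no longer passed. Leaving out single arrays also changed which genes passed. Without WT total 1, Hoxb7 alone of the 10 genes passed, beside 9 others, and without WT total 2 the genes Gpx7, Hoxb2, Hoxb4, Hoxb7 and Thbd passed, beside 35 others. With either KI total or either KI polysomal array left out 0 genes passed in limma, with between 649 and 1246 at an unadjusted p under 0.05. With either WT polysomal array left out 4 passed, namely Hoxb2, Hoxb4, Thbd and Thbs2.

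A description that needs no estimate of spread is the smallest of the 4 differences between a KI and a WT array. KI was at least 1 higher in all 4 pairs for 30 genes (0.34%) and at least 1 lower in all 4 for 13 (0.147%). Of the 30 genes 4 passed in limma, and of the 13 genes 5 did. For 3 of the 30 both WT arrays lay below the filter value, and for 5 of the 13 both KI arrays did, where the fold is understated. Over all 23978 named probes, 35 (0.146%) were at least 1 higher and 13 (0.0542%) at least 1 lower in every pair, 23047 (96.1%) lay within 0.5 of no difference, and 10391 (43.3%) were under the filter value on all 4 total arrays.

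**Figure D3:**
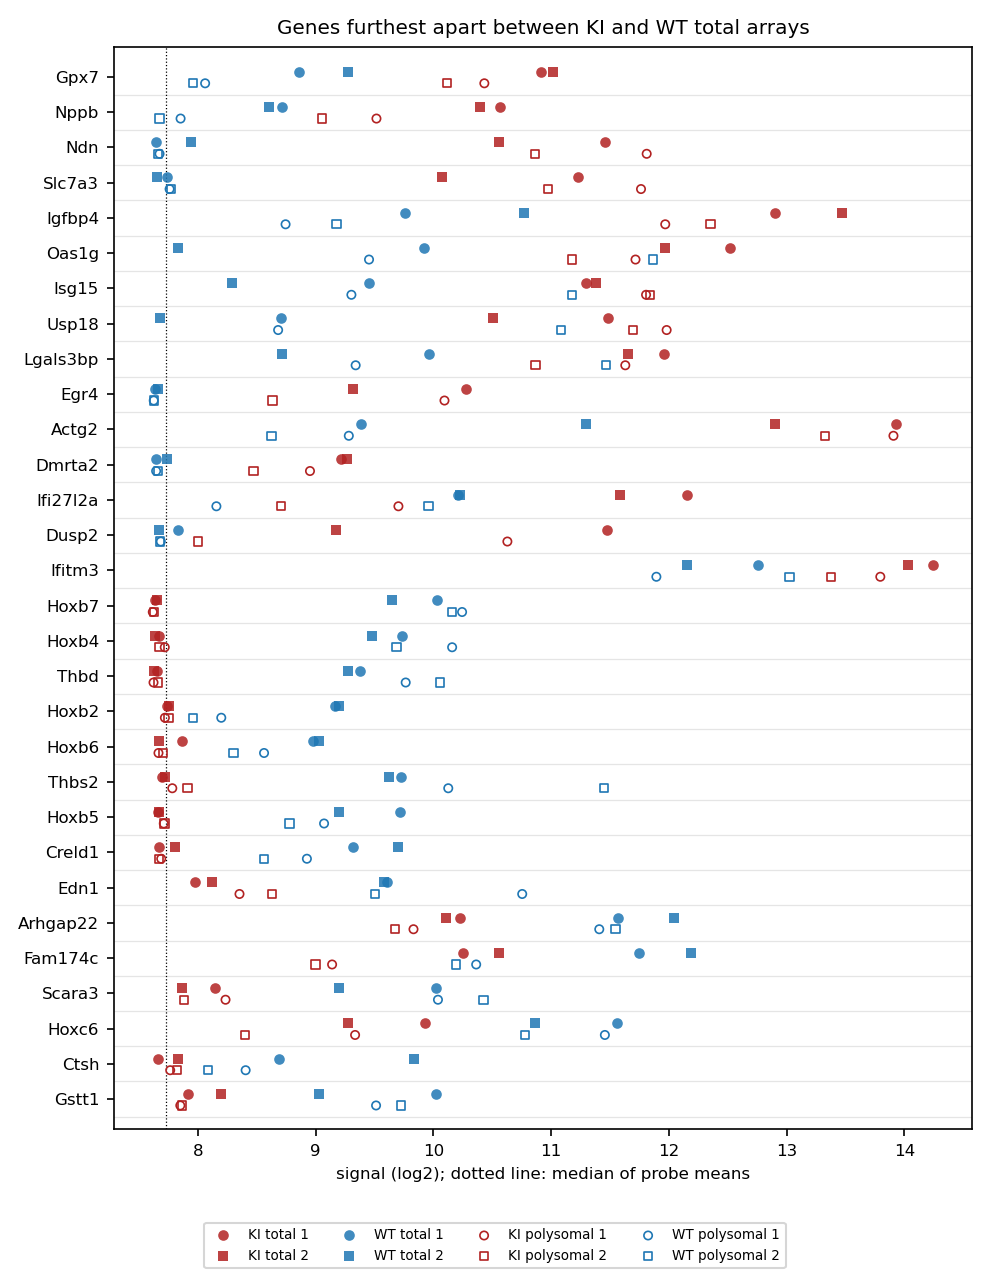
Log2 signal (x axis) on all 8 arrays for the 15 genes with the widest gap above and the 15 with the widest gap below between the KI and WT total arrays, clone identifiers such as 1700037H04Rik left out (y axis). Filled symbols are total RNA and open symbols polysomal RNA, red is KI and blue WT, circles are replicate 1 and squares replicate 2. Filled red and blue symbols are apart for every gene shown; the open blue square of Oas1g (11.87) lies among the red symbols.

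Hox B genes, which encode position-specifying transcription factors, read lower in KI. Of 6 tested Hox B genes 4 fell in limma, namely Hoxb2, Hoxb4, Hoxb6 and Hoxb7, and 5 were at least 1 lower in every pair, against 0.147% of all tested genes. Hoxb7 read 7.64 and 7.65 in KI and 10.03 and 9.65 in WT, a difference of −2.20 ± 0.14 (limma adjusted p = 0.0277). Errors are limma's SE, with n = 2 arrays in each group and the spread pooled over all 8 arrays, polysomal arrays included. Both KI values were at the bottom of the signal range. Hoxb4 read 7.67 and 7.64 in KI and 9.73 and 9.48 in WT (limma adjusted p = 0.0493). Hoxb2 read 7.73 and 7.76 against 9.16 and 9.20 (limma adjusted p = 0.0277), and Hoxb6 read 7.86 and 7.67 against 8.98 and 9.03 (limma adjusted p = 0.0493). The WT arrays lay within 0.5 of each other for each of these 4 genes. Hoxb5 read 7.66 and 7.67 against 9.71 and 9.20 and missed the threshold (limma adjusted p = 0.051). Hoxb3 read between 7.66 and 7.81 on all 4 arrays, with no measurable level in either line. The Hox B median was −1.61 against the WT mean, −1.74 against WT total 1 and −1.49 against WT total 2, and −0.98 in polysomal RNA. Fewer cells expressing these genes and less RNA per cell cannot be told apart in bulk RNA.

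Hox C genes differed in both directions, and 6 of 7 tested Hox A genes had a negative difference. Of all tested genes 39.8% had a positive difference, so most were negative as well. Hoxc10 read 8.74 and 8.72 in KI and 7.93 and 7.84 in WT and rose by 0.85 ± 0.08 (limma adjusted p = 0.0493). Hoxc9 read 11.15 and 10.38 against 8.93 and 9.25, with no overlap, and did not pass (limma adjusted p = 0.317). Hoxc6, from the same cluster, read 9.93 and 9.28 in KI and 11.56 and 10.87 in WT (difference −1.61, limma adjusted p = 0.375). Within Hox C, 2 of 4 genes were therefore higher and 1 was lower without overlap, against 12.7% and 19.2% of all tested genes. Of 7 Hox A genes 0 passed in limma, 2 had an unadjusted p under 0.05, both lower, and 4 were lower (57.1%) and 1 higher (14.3%) without overlap, against 19.2% and 12.7% of all tested genes. The Hox A median was −0.06. Hoxa5 read 7.89 and 8.01 against 8.67 and 8.72 (limma adjusted p = 0.0797), and Hoxa7 9.62 and 9.24 against 10.38 and 10.88 (limma adjusted p = 0.33). Hoxa11, the 1 Hox A gene higher without overlap, read 7.84 and 7.91 against 7.63 and 7.75 (limma adjusted p = 0.606), close to the filter value. The 1 tested Hox D gene, Hoxd9, was also lower without overlap and read 8.82 on WT total 2 and between 7.66 and 7.72 on the other total arrays.

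Other developmental regulators separated the lines as well. Foxf1, a forkhead factor of lung and gut mesenchyme, read 9.02 and 9.01 in KI and 7.93 and 7.94 in WT and rose by 1.08 ± 0.09 (limma adjusted p = 0.0493). Dmrta2, a transcription factor of the developing forebrain, read 9.21 and 9.26 in KI and 7.64 and 7.74 in WT, near the filter value (limma adjusted p = 0.051). Of 28 tested mesenchymal transcription factors Foxf1 was the 1 that passed, 10 were higher (35.7%) and 4 lower (14.3%) without overlap, against 12.7% and 19.2% of all tested genes, and the median was 0.10. Msx1, a homeobox factor of limb and face mesenchyme, read 8.14 and 8.32 in KI and 7.72 and 7.70 in WT (limma adjusted p = 0.17). Six2, which maintains nephron progenitors, read 7.67 and 8.28 in KI and 8.87 and 9.45 in WT (limma adjusted p = 0.29).

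Imprinted genes, which are read from 1 parental copy, held the widest gap of any named gene. Ndn, the growth suppressor necdin, read 11.45 and 10.56 in KI and 7.64 and 7.94 in WT, a difference of 3.22 ± 0.40 (limma adjusted p = 0.0797). Every KI value exceeded every WT value by at least 2.62, and the polysomal arrays read 11.81 and 10.86 in KI and 7.67 and 7.66 in WT. Snrpn, a splicing protein encoded in the same imprinted region of chromosome 7, read 9.38 and 9.14 against 7.95 and 7.66 (limma adjusted p = 0.0567). Cdkn1c, an imprinted inhibitor of cyclin-dependent kinases, read 9.05 and 9.11 against 8.05 and 7.67 (limma adjusted p = 0.0935). Of 12 tested imprinted genes 0 passed in limma, 5 were higher (41.7%) and 1 lower (8.33%) without overlap, against 12.7% and 19.2% of all tested genes, 4 had an unadjusted p under 0.05, all higher, and the median of 0.06 was near that of all genes. The 3 genes named were the members with every difference past 1.

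Interferon-response genes mostly read higher in KI, and for most of those named WT total 2 read lowest. Irf7, the factor that amplifies interferon transcription, was the 1 of 37 tested list members that rose in limma, with 8.90 and 8.87 in KI and 7.67 on both WT arrays (1.22 ± 0.10, limma adjusted p = 0.0468). Without overlap 26 members were higher (70.3%) and 2 lower (5.41%), against 12.7% and 19.2% of all tested genes. An unadjusted p under 0.05 was reached by 16, all higher, against 4.63% of all tested genes higher. A positive difference was found for 30 members, against 39.8% of all tested genes, with 29 of 37 against WT total 1 and 31 against WT total 2. The list's median was 0.33, with 0.29 against WT total 1 and 0.40 against WT total 2.

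Isg15, a ubiquitin-like protein attached to other proteins, read 11.30 and 11.38 in KI, 9.45 on WT total 1 and 8.29 on WT total 2 (2.47 ± 0.65, limma adjusted p = 0.363). Its KI arrays were close together, and the spread came from WT. Oas1g, an oligoadenylate synthetase gene, read 12.52 and 11.97 in KI and 9.92 and 7.83 in WT (limma adjusted p = 0.389). It is outside the interferon list and is named for its wide gap. For the list member Oas1a the smallest of the 4 array differences was 0.38. The other Oas1g probes differed by 2.41 and 0.17, and near-identical Oas1 copies may share these probes. Usp18, the protease that removes Isg15, read 11.48 and 10.50 against 8.71 and 7.68 (limma adjusted p = 0.402), and its other probes differed by 2.55 and 1.98. Lgals3bp, a secreted glycoprotein, read 11.95 and 11.66 against 9.96 and 8.71 (limma adjusted p = 0.41). Ifitm3, a membrane protein that blocks virus entry, read 14.24 and 14.03 against 12.76 and 12.16 (limma adjusted p = 0.334). For all of these WT total 2 was the lowest of the 4 total arrays.

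Ifi27, Ifi27l2a and Irf9 were also at least 1 higher in every pair. Ifi27 read 13.82 and 13.36 in KI and 12.27 and 11.26 in WT (limma adjusted p = 0.33). Ifi27l2a, of the same family but outside the interferon list, read 12.16 and 11.59 against 10.21 and 10.23 (limma adjusted p = 0.533). Irf9, a DNA-binding factor of the interferon response, read 9.88 and 9.97 against 8.86 and 8.63 (limma adjusted p = 0.507). On the WT polysomal arrays replicate 2 was the higher for Isg15, Oas1g, Usp18, Lgals3bp, Ifitm3, Ifi27 and Irf9, whereas in WT total RNA replicate 1 was. For Ifi27l2a replicate 2 was the higher in both, at 8.16 and 9.96 in polysomal RNA. Isg15 read 9.30 and 11.18 there and Oas1g 9.45 and 11.87 on WT polysomal 1 and 2, against 11.81 and 11.84 and against 11.72 and 11.18 in KI. The list mean on each array was 9.01 and 8.86 in KI total RNA, 8.40 and 8.13 in WT total RNA, 9.15 and 8.97 in KI polysomal RNA, and 8.42 and 9.12 in WT polysomal RNA. WT polysomal 2 therefore lay within the KI range, while WT total 2, of the same replicate number, was the lowest of all 8 arrays.

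Genes of antigen presentation by MHC class I, which show peptides to T cells and are interferon targets in part, gave a median of 0.38 over 17 tested members, with 0.18 against WT total 1 and 0.45 against WT total 2. Of these 0 passed in limma, 6 had an unadjusted p under 0.05, all higher, and 10 were higher (58.8%) and 0 lower without overlap, against 12.7% and 19.2% of all tested genes. Tapbpl, which edits the peptides loaded on class I, read 8.41 and 8.16 in KI and 8.01 and 7.90 in WT (limma adjusted p = 0.44). Calr, the chaperone calreticulin, read 10.25 and 10.15 against 9.84 and 9.57 (limma adjusted p = 0.47). The polysomal median of the list was −0.03.

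Most ATF4 targets had a positive difference. Of 40 tested members 38 did, against 39.8% of all tested genes, and 15 were higher (37.5%) and 0 lower without overlap, against 12.7% and 19.2%. An unadjusted p under 0.05 was reached by 6, all higher, against 4.63% of all tested genes higher, and 0 passed in limma. The median was 0.26, with 0.39 against WT total 1, 0.31 against WT total 2 and 0.42 in polysomal RNA. These medians use the mean of the KI arrays, which differed from each other. The list mean was 10.44 on KI total 1 and 9.90 on KI total 2, against 9.63 and 9.81 in WT, so KI total 2 lay close to WT total 2. Slc7a3, a transporter of cationic amino acids, read 11.23 and 10.07 in KI and 7.74 and 7.65 in WT (2.95 ± 0.42, limma adjusted p = 0.103). Both WT values were near the filter value. Its other probe read between 7.71 and 7.90 on all 4 total arrays, at the bottom of the signal range, and so gives no information on the difference. Fgf21, a stress-induced hormone, read 9.45 and 8.75 against 7.70 and 7.99 (limma adjusted p = 0.402). Aars, which charges tRNA with alanine, read 13.02 and 12.55 against 11.57 and 11.91 (limma adjusted p = 0.288), and Herpud1, of endoplasmic reticulum protein degradation, 13.20 and 12.75 against 11.75 and 12.29 (limma adjusted p = 0.33). KI total 1 was the highest total array for each of these 4 genes. Atf4 mRNA itself read 11.95 and 11.65 in KI and 11.62 and 12.31 in WT, so the groups overlapped. Chaperones and enzymes of endoplasmic reticulum folding had a median of 0.03 over 24 members, and 0 passed in limma.

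Contractile genes had a positive median against either WT array. The median over 21 tested members was 0.51, with 0.51 against WT total 1, 0.47 against WT total 2 and 0.55 in polysomal RNA. Nppb, a natriuretic peptide that stretched muscle cells induce, passed in limma with 10.57 and 10.39 in KI and 8.71 and 8.61 in WT (1.82 ± 0.17, adjusted p = 0.0493). It was the 1 of the 21 members that passed, and it encodes a peptide and not a contractile protein. Actg2, the actin of enteric smooth muscle, read 13.93 and 12.90 in KI, 9.38 on WT total 1 and 11.29 on WT total 2 (limma adjusted p = 0.304). The polysomal arrays of Actg2 read 13.91 and 13.33 in KI and 9.28 and 8.62 in WT. Tpm2, a tropomyosin, read 12.60 and 12.27 against 11.73 and 11.46 (limma adjusted p = 0.193), and Smtn, smoothelin, 11.23 and 11.66 against 10.50 and 10.67 (limma adjusted p = 0.288). Without overlap 12 members were higher (57.1%) and 1 lower (4.76%), against 12.7% and 19.2% of all tested genes, and 7 had an unadjusted p under 0.05, all higher, against 4.63%. Acta2, the α-actin of smooth muscle, read 15.64 and 14.94 in KI and 14.95 and 14.99 in WT, near the top of the signal range, and the groups overlapped.

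Collagens depended on which WT array was used. Over 15 tested members the median was 0.59 against the WT mean, 1.14 against WT total 1 and 0.10 against WT total 2. Of these 0 passed in limma, 7 had an unadjusted p under 0.05, all higher, and 7 were higher (46.7%) and 0 lower without overlap, against 12.7% and 19.2% of all tested genes. Col16a1, a fibril-associated collagen, read 11.46 and 11.51 in KI and 9.94 and 10.33 in WT (1.34 ± 0.16, limma adjusted p = 0.0744). Col4a2, of basement membranes, read 12.27 and 12.02 against 10.60 and 11.25 (limma adjusted p = 0.192). Col1a2, of type I collagen, read 11.35 and 11.04 against 10.01 and 11.20, so that it differed from WT total 1 alone. In polysomal RNA the list's median was 0.93. Among 54 matrix glycoproteins and proteoglycans 16 were higher (29.6%) and 6 lower (11.1%) without overlap, against 12.7% and 19.2% of all tested genes, and 0 passed in limma. Agrn, the heparan sulfate proteoglycan agrin, read 12.63 and 11.84 against 10.55 and 10.58 (limma adjusted p = 0.308). Thbs2, an inhibitor of vessel growth, read 7.69 and 7.72 in KI and 9.73 and 9.62 in WT (limma adjusted p = 0.251).

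Growth factors and their receptors had a median of 0.04 over 42 tested members, and coagulation and complement genes one of 0.07 over 16. Without overlap 11 of the first list were higher (26.2%) and 5 lower (11.9%), and 2 of the second were higher (12.5%) and 1 lower (6.25%), against 12.7% and 19.2% of all tested genes. The genes named next are members of these lists, of the chemokine list or of the widest gaps, and Thbd is the 1 of them that passed. Igfbp4, which binds insulin-like growth factors, read 12.90 and 13.47 in KI and 9.76 and 10.77 in WT (2.92 ± 0.39, limma adjusted p = 0.0933), and its other probe differed by 2.94. Thbd, the anticoagulant receptor thrombomodulin, read 7.66 and 7.63 in KI and 9.38 and 9.27 in WT and fell by 1.68 ± 0.12 (limma adjusted p = 0.0277). Edn1, the vasoconstrictor endothelin, read 7.97 and 8.12 against 9.60 and 9.58 (limma adjusted p = 0.347). Serpinf1, a secreted inhibitor of vessel growth, read 14.39 and 14.11 against 13.21 and 13.25 (limma adjusted p = 0.0655). Cxcl12, the ligand of the receptor CXCR4, read 10.33 and 10.79 against 11.72 and 11.57 (limma adjusted p = 0.351). These values were apart between the lines on all total arrays.

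MAP kinase signalling lies upstream of eIF4E phosphorylation, and its output genes were read as a list. Over 29 tested immediate early and feedback genes 0 passed in limma, 4 were higher (13.8%) and 3 lower (10.3%) without overlap, near or under the 12.7% and 19.2% of all tested genes, and the median was 0.07. Egr1, an immediate early transcription factor, read 13.55 and 11.40 in KI and 13.35 and 10.26 in WT, so that replicate 1 was the higher in each line. Egr4, of the same family, read 10.28 and 9.32 in KI and 7.64 and 7.66 in WT (limma adjusted p = 0.33). Dusp2, a phosphatase of MAP kinases, read 11.47 and 9.17 in KI and 7.83 and 7.67 in WT (limma adjusted p = 0.545). Both were near the bottom of the signal range in WT, and in KI replicate 1 was the higher.

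Redox and detoxification genes gave single wide differences without a common shift. Gpx7, a peroxidase of the endoplasmic reticulum, read 10.91 and 11.02 in KI and 8.85 and 9.28 in WT and rose by 1.90 ± 0.18 (limma adjusted p = 0.0493). It was the 1 of 38 tested members of the NRF2 and glutathione list that passed. Gstt1, a glutathione transferase, read 7.91 and 8.19 against 10.02 and 9.03 (limma adjusted p = 0.28), and Mt2, a metallothionein, 9.01 and 8.90 against 7.89 and 8.42 (limma adjusted p = 0.29). The median of the list was −0.09 against the WT mean, −0.31 against WT total 1 and 0.11 against WT total 2.

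Oxidative phosphorylation genes had a negative median against both WT arrays. Over 65 tested members the median was −0.22, with −0.40 against WT total 1 and −0.14 against WT total 2. Without overlap 25 were lower (38.5%) and 2 higher (3.08%), against 19.2% and 12.7% of all tested genes. An unadjusted p under 0.05 was reached by 13, all lower, against 4.44% of all tested genes lower, and 0 passed in limma. Cox7c, a subunit of cytochrome c oxidase, read 12.61 and 12.85 in KI and 13.32 and 13.36 in WT (limma adjusted p = 0.179). Ndufs4, of complex I, read 9.82 and 9.73 against 11.47 and 10.34 (limma adjusted p = 0.403), and Ndufa1, of the same complex, 10.96 and 10.96 against 12.17 and 11.05. Ndufa1 therefore differed mainly from WT total 1. Ribosomal proteins had a median of −0.10 over 55 members, with −0.20 against WT total 1 and 0.07 against WT total 2, and proteasome subunits −0.11 over 36, with −0.28 and 0.06, so the sign of both lists turned with the WT array.

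**Figure D4:**
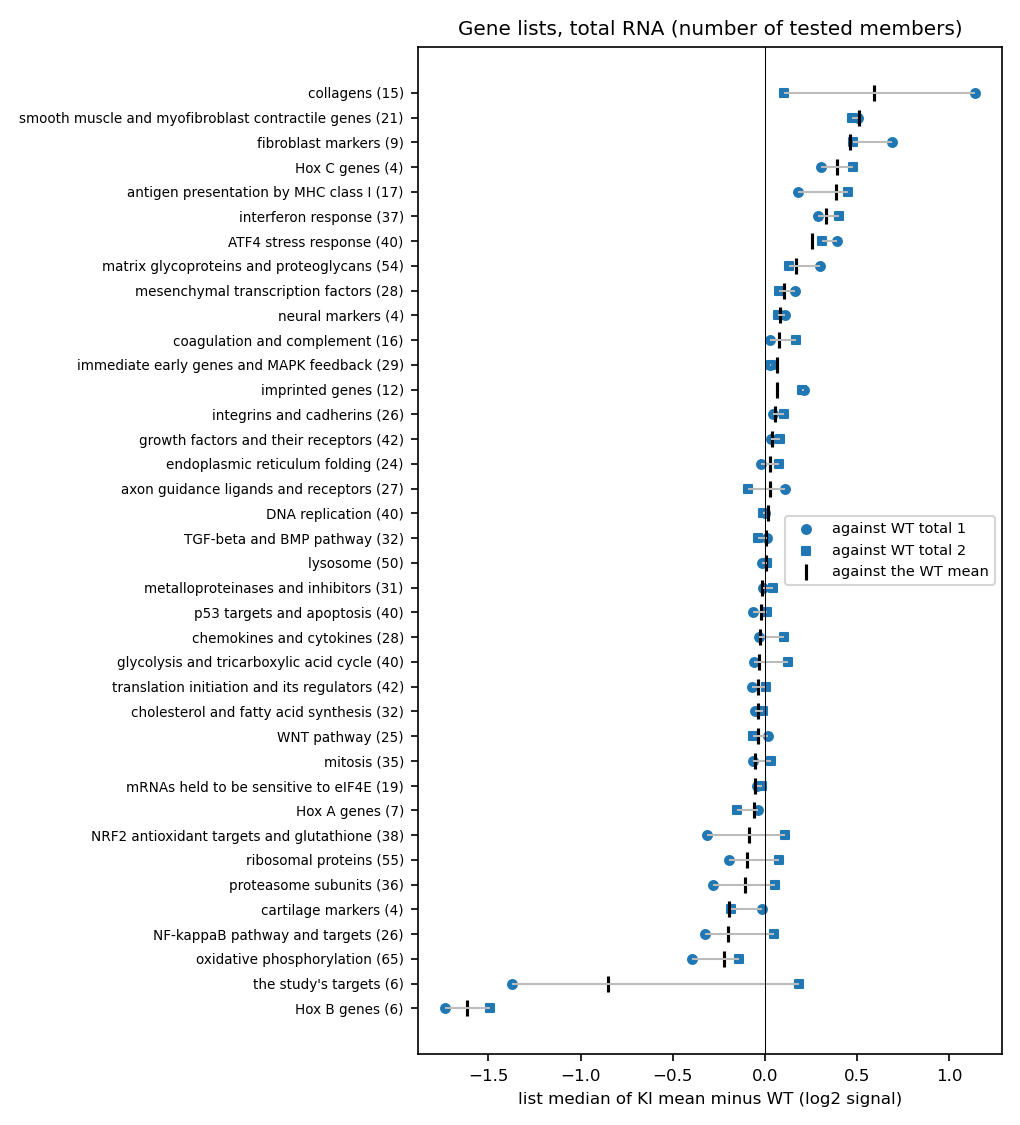
Median KI minus WT difference in log2 signal (x axis) for the gene lists with at least 4 tested members (y axis, number of members in parentheses), against WT total 1 (circle), WT total 2 (square) and the WT mean (bar). Hox B lies at −1.61 with both arrays near it, whereas collagens run from 0.10 to 1.14 and the study's targets from −1.37 to 0.18.

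The study's own targets are a list chosen on these samples. Of the 6 genes, Ccl2, Ccl7, Mmp3, Vegfc, Birc2 and Nfkbia, 0 passed in limma for total RNA. An unadjusted p under 0.05 was reached by 0, against 9.07% of all tested genes. The median was −0.85 against the WT mean, −1.37 against WT total 1 and 0.18 against WT total 2, beside −2.18 in polysomal RNA. Ccl2, a chemokine for monocytes, read 8.66 and 8.59 in KI, 11.63 on WT total 1 and 8.21 on WT total 2. Birc2, an inhibitor of apoptosis, read 7.89 and 9.26 against 9.68 and 9.60. It was the 1 target lower without overlap (16.7%), against 19.2% of all tested genes. Vegfc, a growth factor of lymphatic vessels, read 7.91 and 7.76 against 9.21 and 7.74. With WT total 2 alone as the control 5 of 6 targets had a positive difference, and with WT total 1 alone 0 did. Over all tested genes the median was −0.02 against WT total 2 and −0.03 against WT total 1. The share of all genes positive against each array alone was not counted.

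Translation factors differed little. Of 42 tested initiation factors and regulators 0 passed in limma, 7 were higher (16.7%) and 4 lower (9.52%) without overlap, against 12.7% and 19.2% of all tested genes, and the median was −0.04. Eif4e read 7.67 and 7.76 in KI and 7.82 and 7.76 in WT, at the bottom of the signal range (−0.07 ± 0.10, limma adjusted p = 0.871). Eif4ebp1, the repressor that binds eIF4E, read 13.87 and 13.52 against 12.96 and 13.53, and Mknk1, an eIF4E kinase, 9.34 and 9.16 against 8.83 and 8.95 (limma adjusted p = 0.43). Of 19 mRNAs held in the field to be sensitive to eIF4E, 0 passed in limma and the median was −0.05. Myc, a growth-promoting transcription factor of that list, read 8.09 and 8.22 against 8.60 and 8.45 (limma adjusted p = 0.47).

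Genes that differed mainly from 1 WT array are given here with their values. Hoxb7, Arhgap22, Krt19 and Bmp4, named beside them, were lower in KI than on both WT arrays. Genes outside the rule for named genes, like Atf4, Acta2, Col1a2, Ndufa1 and Vim, were chosen after their values were seen. Without WT total 1, Mmp23, Col2a1, Igf2, Plac9a, Krt19, Slc27a3, Bmp4 and Hoxd9 passed in limma as lower in KI, beside Hoxb7 and Arhgap22. Krt19, a keratin of simple epithelia, read 7.67 on both KI arrays, 8.32 on WT total 1 and 9.80 on WT total 2. Bmp4, a bone morphogenetic protein, read 7.96 and 7.91 in KI and 8.45 and 9.19 in WT. Without WT total 2, 40 genes passed, 13 higher and 27 lower, among them Ccl2, Ccl7, Ccl9 and Dcn as lower and Crip2, Bok and Tbc1d2 as higher. Bok, a pro-apoptotic relative of BCL-2, read 12.81 and 12.63 in KI, 10.76 on WT total 1 and 12.84 on WT total 2. Adh7, an alcohol dehydrogenase, read 7.63 on both KI arrays, 9.31 on WT total 1 and 7.60 on WT total 2, and 9.72 and 9.46 on the WT polysomal arrays. The lone WT array in each of these fits is assumed to vary like the other groups.

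Beside the polysomal arrays, 25 of the 30 genes at least 1 higher in total RNA were also higher without overlap there, where 2081 of all tested genes were (23.6%), and 10 were so by at least 1. The 5 others were Irf9, Oas1g, Lgals3bp, Apol9b and Ifi27l2a. All 13 genes at least 1 lower were lower without overlap in polysomal RNA, against 2559 of all tested genes (29%), and 9 were so by at least 1. The medians were 1.68 in total and 1.18 in polysomal RNA for the higher genes, and −1.64 in both for the lower genes. Total and polysomal RNA came from the same cultures. The interaction, which tests whether the KI minus WT difference differs between RNA types, passed in limma for 0 genes (0%) and reached an unadjusted p under 0.05 for 199 (2.25%).

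Other genes with wide gaps were lower in KI. Arhgap22, a regulator of the GTPase RAC1, read 10.23 and 10.11 in KI and 11.57 and 12.04 in WT (−1.64 ± 0.17, limma adjusted p = 0.051). Creld1, an endoplasmic reticulum protein of heart valve development, read 7.67 and 7.80 against 9.32 and 9.70 (limma adjusted p = 0.051). Fam174c read 10.26 and 10.56 against 11.74 and 12.19 (limma adjusted p = 0.0744). Scara3, a scavenger receptor family member, read 8.14 and 7.87 against 10.02 and 9.20 (limma adjusted p = 0.22), and Ctsh, the lysosomal protease cathepsin H, 7.66 and 7.83 against 8.69 and 9.83 (limma adjusted p = 0.33). 1700037H04Rik, a clone identifier that the rule for named genes leaves out, read 11.35 and 11.66 against 12.89 and 12.78 (limma adjusted p = 0.0744), a smallest difference of −1.11 that is wider than those of Scara3 and Ctsh. Every KI value of these genes lay below both WT values.

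Markers were read to check the cell type. Of 10 fibroblast markers 9 were tested, and their mean signal lay between 10.18 and 10.50 on the 4 total arrays. Without overlap 4 were higher in KI (44.4%) and 1 lower (11.1%), against 12.7% and 19.2% of all tested genes, 6 had a positive difference and the median was 0.46. The 4 higher were Col1a1 (1.34), Col3a1 (0.84), Thy1 (0.84) and Pdgfrb (0.46), with limma adjusted p-values from 0.36 to 0.616. Vim, the intermediate filament of mesenchymal cells, read 13.14 and 11.55 in KI and 12.48 and 11.72 in WT. Pdgfra, a receptor of fibroblasts and the 1 marker lower without overlap, read 7.82 and 8.26 in KI and 8.68 and 9.23 in WT (limma adjusted p = 0.37). The endothelial markers Pecam1, Cdh5, Tek, Tie1 and Emcn and the leukocyte marker Ptprc did not pass the filter. Kdr, the 1 endothelial marker that passed it, read 7.71 and 7.67 in KI and 7.74 and 7.93 in WT. Cd14 was the 1 of 4 macrophage and blood markers on the array that passed the filter, and read 9.74 and 9.30 in KI and 9.57 and 9.12 in WT. The 3 tested skeletal muscle markers averaged 8.29 and 8.80 in KI and 7.92 and 8.42 in WT. Among them Acta1 read 9.26 and 10.71 against 7.91 and 9.42. The 4 tested neural markers averaged 8.26 and 8.67 against 8.15 and 8.27, and Nes read 9.71 and 11.23 against 9.22 and 9.70. Pparg, the 1 tested adipocyte marker, read 8.05 and 7.76 against 7.85 and 8.10. The mean of the 4 tested cartilage markers was 7.92 on both KI arrays and 8.68 on WT total 2, with WT total 1 between these, and that of the 2 tested bone markers was 7.67 and 7.71 in KI and 7.69 and 8.27 in WT. The cartilage mean on WT total 2 rests on Col2a1 (10.42). Sox9, Comp and Col9a1 read 8.54, 7.83 and 7.91 there, and 8.52, 7.75 and 7.68 on KI total 1. Of the bone markers Sp7 read 8.60 on WT total 2 and Alpl 7.94. The 2 tested epithelial markers averaged 8.18 and 8.45 in KI and 8.63 on WT total 2, and less than these on WT total 1. Krt14 read 8.32 and 8.73 in KI and 7.91 and 9.10 in WT, and Krt8 8.04 and 8.17 against 8.09 and 8.15. The part of these markers in the differences was not tested. Of the Y-linked genes, Eif2s3y read 7.89 and 8.43 in KI and 7.61 and 7.63 in WT, and 9.47 and 9.60 against 7.64 on both arrays in polysomal RNA. Uty read 7.76 and 7.99 in KI and 7.95 and 8.06 in WT total RNA, so the groups overlapped. Kdm5d read 7.68 on both KI total arrays and 7.60 and 7.62 in WT, at the bottom of the signal range. WT total 2 thus lay with WT total 1 for Eif2s3y, at the bottom of the signal range, and for Hoxb7. Uty did not separate the lines. Hoxb7 is named because both WT arrays lay apart from KI, so its likeness on them was fixed by that choice.

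Neighbouring genes were compared because both lines were immortalised by passage. Over 8664 runs of 9 neighbouring tested genes, the lowest median was −1.24 on chromosome 11, in the run from Snf8 to Hoxb2 that holds the Hox B cluster. Its non-Hox members Snf8, Ube2z and Atp5g1 differed by −0.13, −0.18 and −0.09. The next lowest were −0.54 on chromosome 13 (Plpp1 to Mocs2) and −0.49 on chromosome 17 (Aars2 to Mad2l1bp). The highest were 0.45 on chromosome 7 (Hnrnpl to Yif1b), 0.42 on chromosome 9 (Bace1 to Nnmt) and 0.38 on chromosome 7 (Zfp607a to Zfp36). By whole chromosome the medians ran from −0.14 on chromosome 10 to 0.06 on chromosome 7. On chromosome 7, 187 of 687 genes were higher without overlap (27.2%), and on chromosome 13, 120 of 316 were lower (38%), against 12.7% and 19.2% of all genes. These are small shifts, and no test was made of them.

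**Figure D5:**
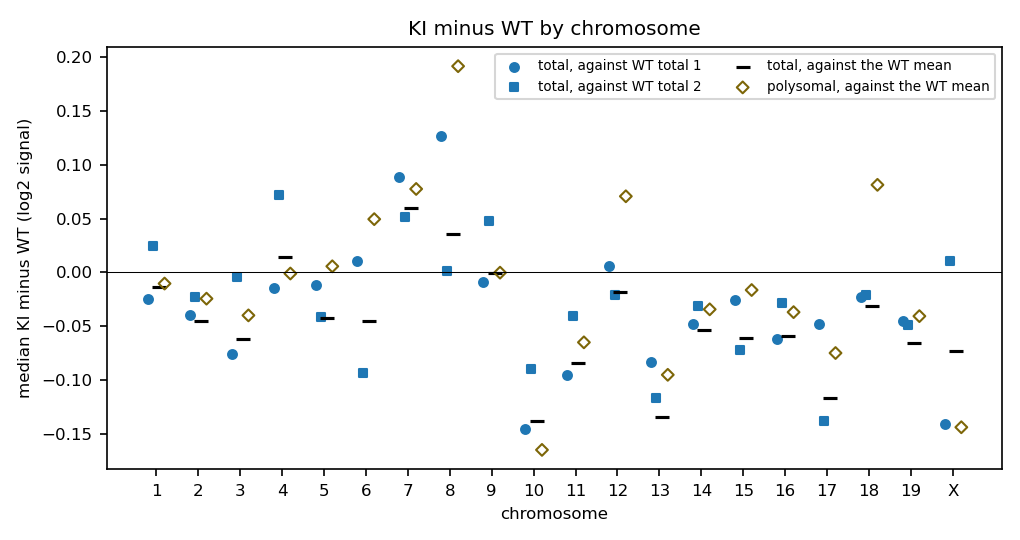
Median KI minus WT difference in log2 signal (y axis) of the tested genes of each chromosome (x axis) in total RNA against WT total 1 (circles), WT total 2 (squares) and the WT mean (bars), and in polysomal RNA (diamonds). Chromosome 10 is low at each symbol (−0.14 against the WT mean) and chromosome 7 high (0.06), whereas the circle and square of the X chromosome differ in sign (−0.14 and 0.01).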

How the data were processed

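The authors deposited log2 signal values for 8 bead arrays; per the labels, 250 ng of RNA was labelled per sample. Per the submitters' processing notes the R package lumi was used; version, role, background correction, normalization and log base were not given in the sources used here. The log2 scale was read from the range of the values. A second deposited table repeats these values under 8 column names that no label gives, and its columns were not used.

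Of 23978 named probes, 23962 had a gene ID found in RefSeq (GRCm38.p6), which served for names and gene order. limma 3.58.1 in R 4.3.3 (lmFit, eBayes) fitted a mean for each of 4 groups over the 8 arrays, without a block, leaving 4 residual and 1.8 prior degrees of freedom, with two-sided p-values adjusted by the Benjamini-Hochberg method over 8832 genes. The fit was tested on simulated data. An exact permutation test of 2 arrays against 2 cannot go below p = 0.333.

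Named genes, with clone, locus and accession identifiers left out, were those passing (up to 15 a direction), the 15 a direction with the widest smallest array difference, the 8 a direction furthest apart between the WT total arrays, up to 4 members of each of 46 lists by smallest p plus members with all 4 differences past 1, Eif4e, sex-linked genes and the neighbour runs. The members and lists were chosen with earlier results of these data known. The alternatives tried were the filter, the probes used, the normalization, blocks, eBayes options and leaving out each array.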

Additional observations from a re-analysis of the deposited data

How the results depend on the processing

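The counts of passing genes were small and moved with most settings, while 0 of the differences of passing and widest-gap genes changed sign. Against 5 higher in limma, the number was 8 with a stricter filter (75th percentile), 2 with every named probe tested as its own feature, 8 after quantile normalization, 3 with arrays centred on their medians, 0 with only the 4 total arrays, 3 with the replicate block, 42 with an eBayes trend and 0 with robust eBayes. Against 5 lower, it was 3 with every named probe, 0 with only the total arrays, 8 with culture as a random block, 16 with the trend and 3 with robust eBayes. Leaving out single arrays gave 0 to 13 higher and 0 to 27 lower genes. The 801 genes at an unadjusted p under 0.05 became 1274 with no filter, 366 with the stricter filter, 457 with only the total arrays, and 644 to 1346 with single arrays left out. Genes at least 1 higher in all pairs ranged from 30 to 81 and genes at least 1 lower from 13 to 101 with single arrays left out, where fewer pairs have to pass. Of 416 recomputed list medians 99 moved by more than the spread between replicates, and 7 lists had no member left under the stricter filter. KI and WT arrays share a replicate number, and their deviations from the group means correlated at 0.39 across genes; the labels do not say that the number marks a shared batch. With the replicate block 9 genes passed, 3 higher and 6 lower, of which Hoxb2, Hoxb4, Hoxb7, Nppb and Thbd were among the 10. The cause of these changes was not tested. Probes near the bottom of the signal range limit every fold against them.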
